A study of Mus musculus with 30 samples.

Results

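Transcript levels of 10 genes of hepatic stellate cells and of the extracellular matrix were followed in irradiated and non-irradiated mouse livers. They are a list of names, with no cut on a measured value: Col1a1, Col1a2, Col3a1, Dcn, Lrat, Reln, Lhx2, Postn, Angptl6 and Igfbp7. These are 10 of the 51826 gene identifiers in the count table, and all 10 were among the 19685 genes with enough counts to be tested. The livers came from male mice whose strain is labelled C57BL16. One arm was not irradiated and the other received 0.2 Gy of 56Fe ions (a heavy charged particle) at 600 MeV/n. Left lobes were collected 30, 60, 120, 270 and 360 days later (months 1, 2, 4, 9 and 12), with 3 biological replicates per arm and month, so that 30 libraries fell into 10 groups. The age of the mice at irradiation is not given in the sources used here. Total counts per library were 7995248 to 20215995, with a median of 14516660. Every library was made from thin slices of whole liver, so the values mix all the cell types of the tissue.

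Stellate cells lie between hepatocytes and the sinusoidal endothelium. In healthy liver they are quiescent and store vitamin A as retinyl esters. After injury they can become activated, lose their retinoid stores and secrete fibrillar collagens and other matrix proteins. Of the genes described here, Lrat encodes the lecithin retinol acyltransferase that makes retinyl esters, Lhx2 a LIM homeobox transcription factor whose loss in mice leads to liver fibrosis, and Reln the secreted glycoprotein reelin, a stellate cell marker in liver. Col1a1 and Col1a2 encode the chains of type I collagen and Col3a1 that of type III collagen. Dcn encodes decorin, a small proteoglycan that binds collagen fibrils, and Postn encodes periostin, a matricellular protein that rises with activation. Igfbp7 and Angptl6 encode secreted proteins, an insulin-like growth factor binding protein made by both endothelial and mesenchymal cells and an angiopoietin-like factor.

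In irradiated livers at month 9, Lhx2, Postn, Angptl6 and Igfbp7 were lower than in controls, and the fibrillar collagens varied together from liver to liver. The stretches of DNA just before the start sites of those 4 genes and of Col3a1 are shown so that the genes called at month 9 can be compared by sequence with each other and with a collagen gene that was not called. Each run holds the 250 bases before the RefSeq start site (GRCm38.p6), 5′ to 3′ on the gene's own strand. Capitals mark matches on either strand to any of 5 words, none of which overlapped here. They are the TATA word TATAAA, the CAAT word CCAAT, the GC box core GGGCGG, the homeodomain word TAATTA and the E-box word CAGCTG. The windows are chr1:45311288-45311537 (plus strand, Col3a1), chr2:38339031-38339280 (plus, Lhx2), chr3:54360857-54361106 (plus, Postn), chr9:20879711-20879960 (minus, Angptl6) and chr5:77408046-77408295 (minus, Igfbp7).
Lhx2: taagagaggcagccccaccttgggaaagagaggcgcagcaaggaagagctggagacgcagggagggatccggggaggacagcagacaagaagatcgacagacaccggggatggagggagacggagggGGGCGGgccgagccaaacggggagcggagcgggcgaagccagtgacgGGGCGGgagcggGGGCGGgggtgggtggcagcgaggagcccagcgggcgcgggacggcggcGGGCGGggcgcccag
Postn: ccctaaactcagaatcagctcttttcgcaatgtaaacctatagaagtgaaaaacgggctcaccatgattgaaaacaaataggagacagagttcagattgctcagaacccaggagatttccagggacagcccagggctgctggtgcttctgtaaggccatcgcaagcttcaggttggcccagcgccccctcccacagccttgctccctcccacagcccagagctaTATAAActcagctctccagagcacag
Angptl6: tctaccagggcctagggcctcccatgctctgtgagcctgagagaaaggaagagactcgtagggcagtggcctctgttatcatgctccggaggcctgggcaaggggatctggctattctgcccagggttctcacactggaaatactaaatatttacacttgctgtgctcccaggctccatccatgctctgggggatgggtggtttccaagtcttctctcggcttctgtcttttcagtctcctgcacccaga
Igfbp7: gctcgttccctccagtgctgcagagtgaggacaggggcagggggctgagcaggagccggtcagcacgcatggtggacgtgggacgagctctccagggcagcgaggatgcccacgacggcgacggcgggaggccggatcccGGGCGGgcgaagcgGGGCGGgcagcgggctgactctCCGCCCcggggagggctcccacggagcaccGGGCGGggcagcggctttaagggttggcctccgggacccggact
Col3a1: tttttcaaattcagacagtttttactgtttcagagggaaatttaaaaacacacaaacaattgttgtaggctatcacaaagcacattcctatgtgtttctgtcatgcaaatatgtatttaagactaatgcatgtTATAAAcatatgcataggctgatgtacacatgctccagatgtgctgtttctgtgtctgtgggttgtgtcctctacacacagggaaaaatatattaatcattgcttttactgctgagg

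No word was common to the 4 windows of the genes called at month 9. Lhx2 held 4 matches to GGGCGG, the core of the GC box, at positions -123, -76, -64 and -15 from the start site. Igfbp7 also held 4, at -110, -96, -74 and -44. Postn held the TATA word TATAAA at -26, and Col3a1 held it at -117. Angptl6 held none of the 5 words. GGGCGG was found in 32.74% of 32851 RefSeq windows of this length and TATAAA in 12.37%, against 33.85% for CCAAT, 4.84% for TAATTA and 13% for CAGCTG. RefSeq windows were matched for 8 of the 10 genes, with none for Col1a1 and Dcn. Reln held 6 matches to GGGCGG, Lrat held 1 to GGGCGG and 1 to CCAAT, and Col1a2 held 2 and 1. The Col1a2 window lies 804 bases from the first base of the gene in Gencode. A match describes letters and not a site in use.

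Some features of the libraries bear on the values below. The non-coding RNA Gm26917 took 3.04% to 7.57% of all counts at months 1 and 2 (12 libraries), but 0.452% to 2.04% at months 4, 9 and 12 (18 libraries). No batch is labelled, so a change between the early and late months cannot be told apart from this difference. Hepatocyte markers were abundant in all libraries (Alb, 15770 to 75660 CPM, counts relative to a library size that was scaled by TMM factors). Markers of portal fibroblasts and mesothelium, other sources of collagen, were low, where 3 counts correspond to 0.148 to 0.375 CPM. Means of the 10 portal fibroblast markers ran from 0.151 (Clec3b) to 3.39 CPM (Fbln2), and those of the mesothelial markers apart from Krt8 from 0.227 (Rspo1) to 2.50 CPM (Muc16). None of the marker genes examined was at 0 in all libraries. In one irradiated library of month 9 (replicate 1) the mesothelial list summed to 1003 CPM, nearly all from the keratin gene Krt8, against 138.1 to 343.1 CPM in the other libraries. In one control of month 12 (replicate 2) the Kupffer cell list summed to 1490 CPM, against 211.5 to 903.7 CPM elsewhere.

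Per kb of transcript, decorin was the most abundant and Lhx2 the least. Mean levels over the 30 libraries, in CPM per kb, were 67.2 for Dcn, 42.2 for Igfbp7, 13.3 for Reln and 8.13 for Col3a1. Angptl6 (6.88), Lrat (6.06) and Postn (5.73) formed a middle group, followed by Col1a2 (3.56), Col1a1 (1.71) and Lhx2 (0.927). Igfbp7 (27.9 to 58.5) was above Reln (6.74 to 21.8) in every library, while the ranges of all other neighbours in this order overlapped. Lhx2 rested on 17 to 74 counts per library and Col1a1 on 54 to 318, whereas Dcn had 728 to 2711 and Reln 821 to 4554. Lrat and Col1a1 were the most variable, with a highest library 5.52 and 5.83 times the lowest. Igfbp7 and Dcn varied least (2.10 and 2.29 times).

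**Figure D1:**
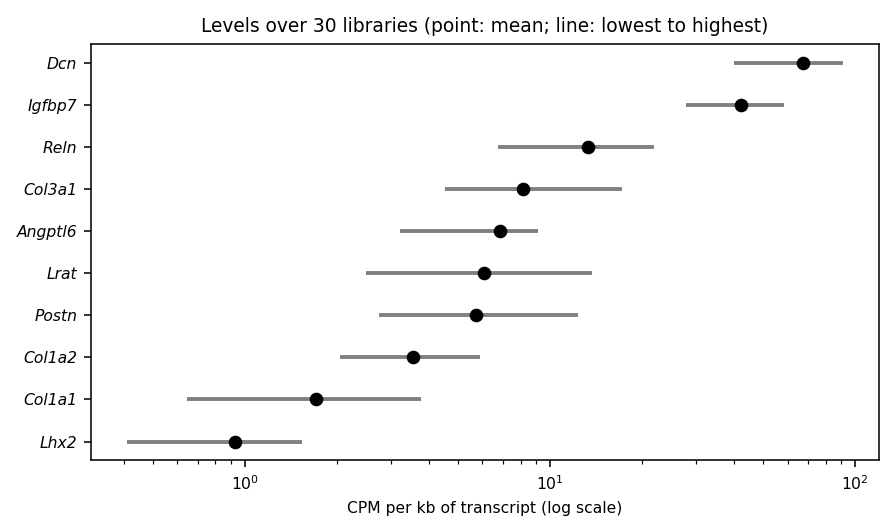
Level of each gene over the 30 liver libraries (horizontal axis, CPM per kb of transcript, log scale; vertical axis, gene). Points are means and lines run from the lowest to the highest library; Dcn had the highest mean (67.2) and Lhx2 the lowest (0.927), and the lines of neighbouring genes overlap except those of Igfbp7 and Reln.

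All 10 genes are protein-coding. On GRCm38, Col1a1 (ENSMUSG00000001506) lies on chromosome 11 from 94936224 to 94953042, Col1a2 (ENSMUSG00000029661) on chromosome 6 from 4504814 to 4541544, and Col3a1 (ENSMUSG00000026043) on chromosome 1 from 45311538 to 45349706. Dcn (ENSMUSG00000019929) is on chromosome 10 from 97479609 to 97518143. Lrat (ENSMUSG00000028003) spans 82892579 to 82903973 and Postn (ENSMUSG00000027750) 54361109 to 54391037, both on chromosome 3. Reln (ENSMUSG00000042453) spans 21884454 to 22344702 and Igfbp7 (ENSMUSG00000036256) 77349240 to 77408041, both on chromosome 5. Lhx2 (ENSMUSG00000000247) is on chromosome 2 from 38339281 to 38369733, and Angptl6 (ENSMUSG00000038742) on chromosome 9 from 20873808 to 20879727. The strand setting of the counting is not stated. A gene on the opposite strand shares 16.75% of the exon bases of Angptl6 (A230050P20Rik) and 7.03% of those of Igfbp7 (Polr2b), and an antisense RNA, Gm10475, shares 1.04% of those of Reln, so some counts of these 3 genes may be of their neighbours. The other genes share no exon base with a gene on the opposite strand.

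**Figure D2:**
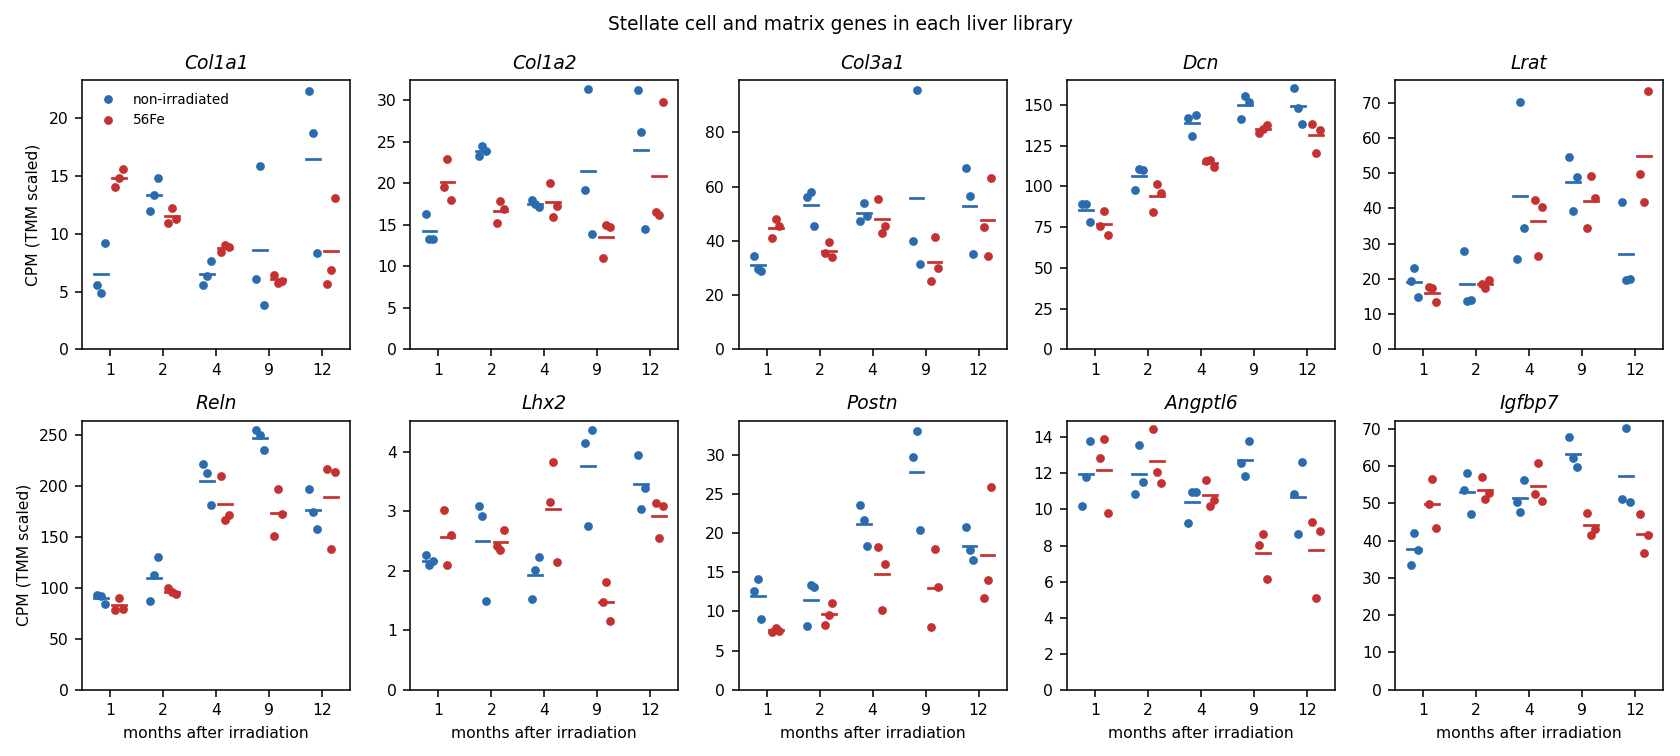
Every library shown as a point, blue for control livers and red for irradiated ones, with CPM on vertical axes that start at 0 and are scaled per gene, and the month of collection on horizontal axes. Short bars mark the mean of each group. At month 9 the irradiated points of Lhx2, Postn, Angptl6 and Igfbp7 lie below all control points, and 1 control stands high in Col1a1, Col1a2 and Col3a1.

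The clearest difference between the arms was at month 9. The controls gave 4.15, 2.76 and 4.36 CPM of Lhx2, and the irradiated livers gave 1.47, 1.80 and 1.16 CPM. The arms did not overlap. Of the 10 groups, the irradiated mean was the lowest (1.48 CPM) and the control mean the highest (3.76 CPM). Its fitted level was 2.54-fold lower in irradiated livers (log2 fold change -1.34 ± 0.28 SE, adjusted p = 0.0152). Whether there were fewer cells of a type or less of this RNA in each cell cannot be told apart in bulk tissue, here and for every gene below.

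Postn measured 29.7, 33.0 and 20.4 CPM in control livers, against 8.03, 17.96 and 13.1 CPM in irradiated ones of month 9. Every irradiated liver was below every control, although irradiated replicate 2 came close to control replicate 3. The fitted difference was 2.12-fold (log2 fold change -1.08 ± 0.28 SE, adjusted p = 0.0476). For Angptl6, control livers stood at 12.6, 11.8 and 13.8 CPM and irradiated livers at 8.03, 8.64 and 6.16 CPM, again without overlap. The fitted difference was 1.67-fold (log2 fold change -0.74 ± 0.19 SE, adjusted p = 0.0430). The controls gave 67.7, 62.0 and 59.6 CPM of Igfbp7, and the irradiated livers gave 47.5, 41.4 and 43.2 CPM. These did not overlap, and the fitted difference was 1.43-fold (log2 fold change -0.52 ± 0.13 SE, adjusted p = 0.0444). Month 9 control means were the highest of the 10 groups for Postn (27.7 CPM), Angptl6 (12.7 CPM) and Igfbp7 (63.1 CPM). The irradiated mean of month 9 was the lowest for Angptl6 (7.61 CPM), but not for Postn or Igfbp7.

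The other 6 genes were not called at month 9. Reln measured 255.5, 250.4 and 235.6 CPM in control livers, against 151.6, 197.2 and 172.4 CPM in irradiated ones, which did not overlap (log2 fold change -0.51 ± 0.16 SE, adjusted p = 0.0851). Dcn also did not overlap, at 141.5, 155.7 and 152.0 against 132.6, 135.1 and 137.9 CPM, with a small difference (log2 fold change -0.15 ± 0.11 SE, adjusted p = 0.549). For Lrat, control livers stood at 54.6, 39.3 and 48.9 CPM and irradiated livers at 34.4, 49.3 and 42.9 CPM, with overlap. The collagens overlapped between the arms, with control replicate 2 high and control replicate 3 low. The controls gave 40.1, 95.7 and 31.6 CPM of Col3a1, and the irradiated livers gave 25.2, 41.5 and 30.0 CPM (log2 fold change -0.79 ± 0.30 SE, adjusted p = 0.171). Col1a2 was at 19.2, 31.4 and 13.9 against 10.97, 14.96 and 14.7 CPM, and Col1a1 at 6.06, 15.9 and 3.84 against 6.48, 5.71 and 5.96 CPM.

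Of all genes tested at month 9, edgeR called 1.66% in either direction and 0.498% as lower. The arms did not overlap for 8.77% of all genes in the lower direction and 9.40% in the higher one, against 6 and 0 of the 10 genes. All 10 estimates were below 0, with a median log2 fold change of -0.59, while 49.51% of all tested genes were lower and their median was 0.004. DESeq2 and limma voom each called 5, adding Reln. The calls depended on single libraries, as did those over all genes. edgeR called none of the 10 without control replicate 1, control replicate 3, irradiated replicate 1 or irradiated replicate 3, where the calls over all genes went from 326 to 17, 16, 0 and 39. It called only Lhx2 without control replicate 2 (29 over all genes), and 5 without irradiated replicate 2 (1439 over all genes). With the replicate number as a block, 2 were called (Lhx2 and Igfbp7; 284 over all genes), 1 without the low-count filter (Lhx2; 270 over all genes), and 0 of all genes when only the 6 libraries of month 9 were fitted. Igfbp7 was not called with RLE factors (adjusted p = 0.0525) or with Gm26917 as a covariate (adjusted p = 0.0559). The 4 fold changes kept their direction in each of these fits. Without irradiated replicate 1, the library high in Krt8, Lhx2 gave -1.33 (adjusted p = 0.123), Postn -0.82, Angptl6 -0.77 and Igfbp7 -0.56.

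Of the 12 marker lists of other cells, none held a called gene at month 9, and the sums of 4 did not overlap between the arms. The 10 sinusoidal endothelial markers summed to 627.4 to 700.0 CPM in controls and 431.9 to 558.1 CPM in irradiated livers. All 10 were estimated lower, with a median log2 fold change of -0.38. The smooth muscle list, mostly Mylk, summed to 165.9 to 181.5 and 136.2 to 163.0 CPM. The portal fibroblast list overlapped between the arms (10.4 to 18.03 and 9.45 to 13.6 CPM). The neutrophil list was at 4.19 to 4.36 CPM in controls and 4.59 to 18.9 CPM in irradiated livers, and the erythroid list at 231.4 to 281.1 and 196.9 to 215.8 CPM. The part of these levels in the differences of Lhx2, Postn, Angptl6 and Igfbp7 was not tested.

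**Figure D3:**
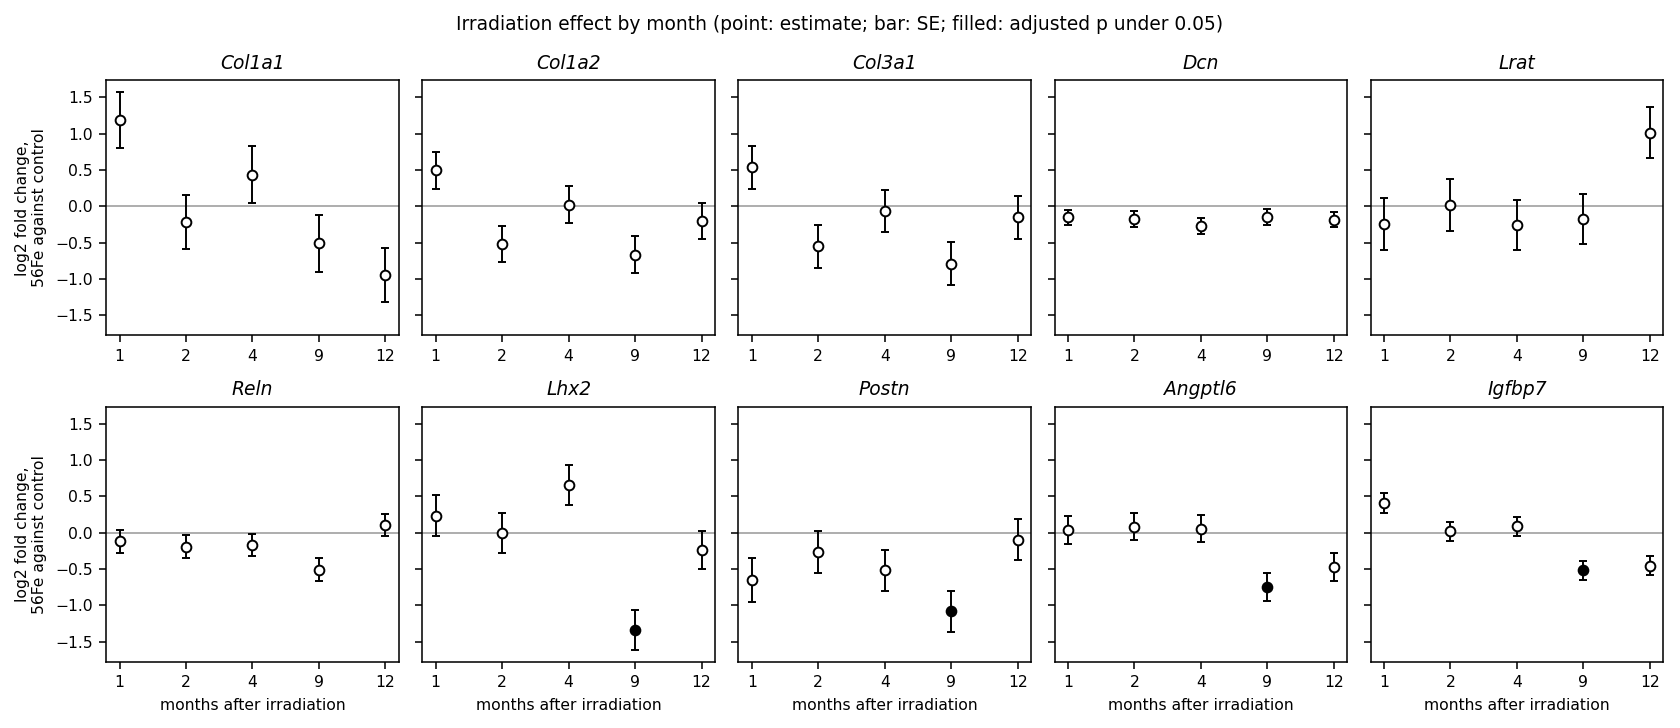
Log2 fold change of irradiated against control livers (vertical axes, shared scale) by month (horizontal axes) for each gene; points are edgeR estimates, bars are SE and filled points passed an adjusted p of 0.05. The 4 filled points are all at month 9 and below 0 (Lhx2 -1.34, Postn -1.08, Angptl6 -0.74, Igfbp7 -0.52), and Dcn lies slightly below 0 at every month.

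At month 1 the collagens stood higher in irradiated livers, without a call. Col1a1 measured 5.53, 4.91 and 9.21 CPM in control livers, against 14.02, 14.9 and 15.6 CPM in irradiated ones, a difference that did not pass (log2 fold change 1.19 ± 0.39 SE, adjusted p = 0.0893). Col1a2 was at 16.3, 13.4 and 13.3 against 19.5, 22.9 and 18.02 CPM (log2 fold change 0.49 ± 0.26 SE). Col3a1 was at 34.3, 29.7 and 28.9 against 41.0, 48.2 and 45.6 CPM (log2 fold change 0.54 ± 0.30 SE). In all 3 the arms did not overlap. Igfbp7 was also higher without overlap, at 33.5, 42.0 and 37.5 against 49.7, 56.5 and 43.4 CPM (log2 fold change 0.41 ± 0.14 SE, adjusted p = 0.0866), whereas Postn was lower without overlap, at 12.6, 14.2 and 9.03 against 7.37, 7.92 and 7.52 CPM (log2 fold change -0.65 ± 0.30 SE). The 4 genes higher and 1 lower compare with 8.71% and 9.92% of all genes.

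edgeR called none of the 10 at month 1, where it called 4.60% of all genes, and 3 had an unadjusted p under 0.05. DESeq2 and limma voom both called Col1a1 and Igfbp7. Without control replicate 3, edgeR called Col1a1 (log2 fold change 1.49, adjusted p = 0.0353), when 1874 of all genes were called. With Gm26917 as a covariate, edgeR called only Col1a2 of the 10 (log2 fold change 1.14, adjusted p = 0.0243), when 113 of all genes were called. In irradiated livers of month 1 the share of Gm26917 was higher (6.36% to 7.57% against 3.04% to 6.09%), the portal fibroblast list was higher without overlap (11.4 to 18.3 against 9.59 to 10.54 CPM), and the lymphocyte list lower (6.36 to 9.79 against 9.998 to 14.1 CPM). The share of called genes that were lower was 67.6% with TMM and 42.8% with upper quartile factors. The part of these shifts in the collagen values was not tested.

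At month 2 the direction of the collagen estimates was opposite to that of month 1. For Col1a2, control livers stood at 23.3, 24.5 and 23.9 CPM and irradiated livers at 15.2, 17.9 and 16.9 CPM (log2 fold change -0.52 ± 0.25 SE, adjusted p = 0.228). Col3a1 was at 56.2, 58.0 and 45.6 against 35.4, 39.5 and 34.1 CPM (log2 fold change -0.55 ± 0.30 SE). Both were without overlap, and Col1a1 overlapped at 11.9, 13.3 and 14.8 against 10.98, 12.3 and 11.3 CPM. The 2 genes lower and 0 higher compare with 18.6% and 15.6% of all genes. edgeR, DESeq2 and limma voom called none of the 10, while edgeR called 4.37% of all genes and 1 of the 10 had an unadjusted p under 0.05. When the 6 libraries of month 2 were fitted alone, Col1a2 and Col3a1 were called (adjusted p = 0.0109 and 0.00895). That fit called 3026 of all genes, against 860 in the main fit. In irradiated livers of month 2 the share of Gm26917 was higher without overlap (4.79% to 6.93% against 3.32% to 4.76%). Of the 12 marker lists, 6 summed lower without overlap. They were hepatocyte (60930 to 69590 against 70740 to 85320 CPM), Kupffer cell (231.3 to 286.1 against 297.9 to 595.0 CPM), cholangiocyte, mesothelium (mostly Krt8, 168.9 to 177.7 against 194.4 to 221.3 CPM), neutrophil and erythroid. Sinusoidal endothelium (475.2 to 495.6 against 432.8 to 472.0 CPM) and lymphocyte lists summed higher, and the portal fibroblast list overlapped (11.4 to 16.6 against 13.3 to 20.6 CPM). The part of these levels in the collagen values was not tested. Of the genes called at month 2, 41.3% were lower with TMM and 31.1% with upper quartile factors.

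At month 4 the arms differed little in most of these genes. The controls gave 141.9, 130.7 and 143.8 CPM of Dcn, and the irradiated livers gave 115.8, 116.0 and 112.0 CPM (log2 fold change -0.28 ± 0.11 SE, adjusted p = 0.149). Postn was at 23.5, 21.6 and 18.3 against 18.2, 10.2 and 16.04 CPM (log2 fold change -0.52 ± 0.28 SE). Col1a1 was at 5.58, 6.31 and 7.63 against 8.43, 9.05 and 8.86 CPM (log2 fold change 0.43 ± 0.39 SE). These 3 did not overlap between the arms, as for 15.9% of all genes in the lower and 14.3% in the higher direction. Lhx2, which was called lower at month 9, overlapped at month 4 with its estimate on the other side. It was at 1.53, 2.02 and 2.23 CPM in controls and 3.15, 3.82 and 2.15 CPM in irradiated livers (log2 fold change 0.66 ± 0.27 SE, adjusted p = 0.176). edgeR called 3.60% of all genes and none of the 10, with 2 at an unadjusted p under 0.05. DESeq2 and limma voom both called Dcn. Gm26917 took 0.827% to 0.985% of counts in irradiated livers and 0.469% to 0.507% in controls, the smooth muscle list summed higher without overlap (196.9 to 208.9 against 157.7 to 182.6 CPM) and the erythroid list lower (204.0 to 261.5 against 319.4 to 434.8 CPM), and their part in these values was not tested. Of the genes called at month 4, 49.3% were lower with TMM, 61.7% with RLE and 34.0% with upper quartile factors.

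At month 12 edgeR called 0% of all genes, so no call could be read for the 10, of which 4 had an unadjusted p under 0.05. DESeq2 and limma voom also called none of the 10. Igfbp7 measured 51.2, 70.2 and 50.2 CPM in control livers, against 47.2, 36.8 and 41.6 CPM in irradiated ones, without overlap (log2 fold change -0.45 ± 0.13 SE, adjusted p = 0.157). Dcn was lower without overlap as well, at 160.7, 148.4 and 138.5 against 138.3, 120.8 and 134.9 CPM. Col1a1 ranged from 8.33 to 22.4 CPM in controls and from 5.64 to 13.1 CPM in irradiated livers (log2 fold change -0.95 ± 0.38 SE), and Lrat from 19.8 to 41.8 and from 41.7 to 73.4 CPM (log2 fold change 1.01 ± 0.35 SE), both with overlap. The 2 genes lower without overlap and 0 higher compare with 7.78% and 7.74% of all genes. In the correlation check of replicate numbers, same-number r at this month was 0.167 to 0.319. Control replicate 1 was nearer to another number (0.206), so pairs were not established. A fit of the month 12 libraries with the replicate block also called none of the 10. Gm26917 took 0.759% to 1.04% of counts in irradiated livers and 1.33% to 2.04% in controls, and the hepatocyte list summed lower without overlap (82040 to 87380 against 87540 to 110400 CPM), and their part in these values was not tested.

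Averaged over the 5 months, 2 of the 10 differed between the arms. Postn was lower in irradiated livers (log2 fold change -0.52 ± 0.13 SE, adjusted p = 0.0196), with group means of 11.9, 11.5, 21.2, 27.7 and 18.4 CPM in controls of months 1, 2, 4, 9 and 12 and of 7.60, 9.63, 14.8, 13.05 and 17.2 CPM in irradiated livers. Dcn was lower by a smaller and steadier margin (log2 fold change -0.19 ± 0.05 SE, adjusted p = 0.0226). Its means were 85.6, 106.2, 138.8, 149.7 and 149.2 CPM in controls and 76.9, 94.0, 114.6, 135.2 and 131.3 CPM in irradiated livers. Both genes had a lower irradiated mean at all 5 months. edgeR called 5.26% of all genes in this comparison, 2.81% as lower. Postn was called in each fit that left out 1 library. Dcn was not called without control replicate 2 or irradiated replicate 1 of month 1, control replicate 3 of month 4 or irradiated replicate 2 of month 12, nor with upper quartile factors or without the low-count filter. With the level of Gm26917 as a covariate neither gene was called, when 147 of all genes were, against 1035 in the main fit. Of all genes called in this comparison, 53.5% were lower with TMM and 24.7% with upper quartile factors.

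The effect of irradiation differed between months for Igfbp7 (adjusted p = 0.00826) and Lhx2 (adjusted p = 0.0116), in an F-test that called 11% of all genes. Igfbp7 went from a log2 fold change of 0.41 at month 1 to 0.02, 0.09, -0.52 and -0.45 at months 2, 4, 9 and 12. Lhx2 went from 0.23 at month 1 to -0.003, 0.66, -1.34 and -0.24. Both calls held in every fit that left out 1 library. For Igfbp7 the call was lost with Gm26917 as a covariate, when 582 of all genes were called, against 2161 in the main fit. Col1a1 came next (adjusted p = 0.0537), with log2 fold changes of 1.19, -0.22, 0.43, -0.51 and -0.95 at months 1, 2, 4, 9 and 12, and was called by DESeq2 and limma voom. It was also called by edgeR, with Col1a2, when control replicate 3 of month 9, control replicate 3 of month 12 or irradiated replicate 3 of month 12 was left out.

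In control livers, 7 of the 10 genes changed over the 5 months, where 58.3% of all genes did. Reln had the smallest adjusted p (2.32e-08), with means of 89.9, 110.2, 205.5, 247.2 and 176.7 CPM at months 1, 2, 4, 9 and 12. Dcn went from 85.6 CPM at month 1 to 149.2 at month 12 (adjusted p = 4.96e-07). Igfbp7 went from 37.7 to 57.2 CPM (adjusted p = 0.0005), Postn from 11.9 to 18.4 with a peak of 27.7 at month 9 (adjusted p = 0.00124), and Lrat from 19.1 to 27.2 with a peak of 47.6 at month 9 (adjusted p = 0.00302). Lhx2 (adjusted p = 0.00832) and Col1a1 (adjusted p = 0.00871) also changed. Hepatocyte markers changed in the same comparison, with 6 of 10 called and all 6 higher at month 12 than at month 1, and so did 8 of 10 sinusoidal endothelial markers, again all higher.

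In irradiated livers 7 of the 10 also changed over the 5 months, where 59.0% of all genes did. Reln (82.9, 96.6, 183.0, 173.7 and 189.9 CPM, adjusted p = 6.53e-08), Dcn (76.9 to 131.3 CPM, adjusted p = 5.66e-07) and Lrat (16.1 to 54.9 CPM, adjusted p = 0.000581) were higher at month 12 than at month 1. Angptl6, which did not pass in controls (adjusted p = 0.556), was at 12.2, 12.7, 10.8, 7.61 and 7.75 CPM (adjusted p = 0.00153). Postn, Lhx2 and Igfbp7 passed as well (adjusted p = 0.00745, 0.0188 and 0.0468). Igfbp7 was called in 5 of the 15 fits that left out 1 irradiated library, and Lhx2 in 13. With Gm26917 as a covariate 1 of the 10 was called in irradiated livers (Col1a2), when 125 of all genes were. In controls 7 were called with it, when 2727 of all genes were, with Col1a2 and Col3a1 gained and Lrat and Postn lost. The shares near 58.3% and 59.0% of all genes mean that 7 of 10 is not a result about these genes.

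Within months 4, 9 and 12, where Gm26917 was at 2.04% or less, 2 genes changed in controls, where 20.2% of all genes did. Lhx2 was at 1.92 ± 0.36, 3.76 ± 0.87 and 3.46 ± 0.45 CPM (SD, n = 3; adjusted p = 0.0214 from the edgeR fit). Col1a1 was at 6.51 ± 1.04, 8.58 ± 6.39 and 16.5 ± 7.29 CPM (SD, n = 3; adjusted p = 0.0293 from the edgeR fit). Neither was called without control replicate 1 or 2 of month 4. Only Lhx2 was called without control replicate 3 of month 4 or replicate 2 of month 12, and only Col1a1 without control replicate 1 or 3 of month 9. Without replicate 1 of month 12, Col1a1 lost its call and Lrat and Reln gained one. In irradiated livers edgeR called none of the 10 and 2.93% of all genes, with 3 of the 10 at an unadjusted p under 0.05. Lhx2 was nearest there (3.04, 1.48 and 2.93 CPM, adjusted p = 0.0515) and was called by DESeq2, limma voom and without irradiated replicate 2 of month 9.

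The fibrillar collagens varied together from liver to liver. After group means were removed from log2 CPM, Col1a2 and Col3a1 had a Pearson r of 0.896 over the 30 libraries (Spearman rho 0.792), Col1a1 and Col1a2 one of 0.799 (rho 0.499), and Col1a1 and Col3a1 one of 0.750 (rho 0.408). The highest deviation was in control replicate 2 of month 9 (Col1a1 1.13, Col1a2 0.62 and Col3a1 0.95 above the group mean) and the lowest in control replicate 3 of month 9 (-0.89, -0.54 and -0.65) and of month 12 (-0.86, -0.65 and -0.53). Without the 3 controls of month 9, r was 0.868 for Col1a2 with Col3a1, 0.690 for Col1a1 with Col1a2 and 0.527 for Col1a1 with Col3a1. Libraries share their scaling and composition, so these values are a description over livers of mixed groups.

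Stellate and matrix genes did not vary as 1 block. Over the 45 pairs of the 10 genes the median r was 0.21, and 35 pairs were above 0. Postn went with Col1a2 (r = 0.669), Reln (0.604) and Col3a1 (0.561). Lhx2 with the collagens gave -0.23, -0.18 and -0.05 for Col1a1, Col1a2 and Col3a1, and Igfbp7 with them 0.07, 0.05 and 0.06. Lrat was highest with Lhx2 (0.335) and Col1a2 (0.315). The 4 genes called at month 9 were not tightly linked to each other within groups: Lhx2 and Postn gave -0.23, Postn and Igfbp7 -0.23, Angptl6 and Igfbp7 0.24, and Lhx2 and Angptl6 0.31.

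**Figure D4:**
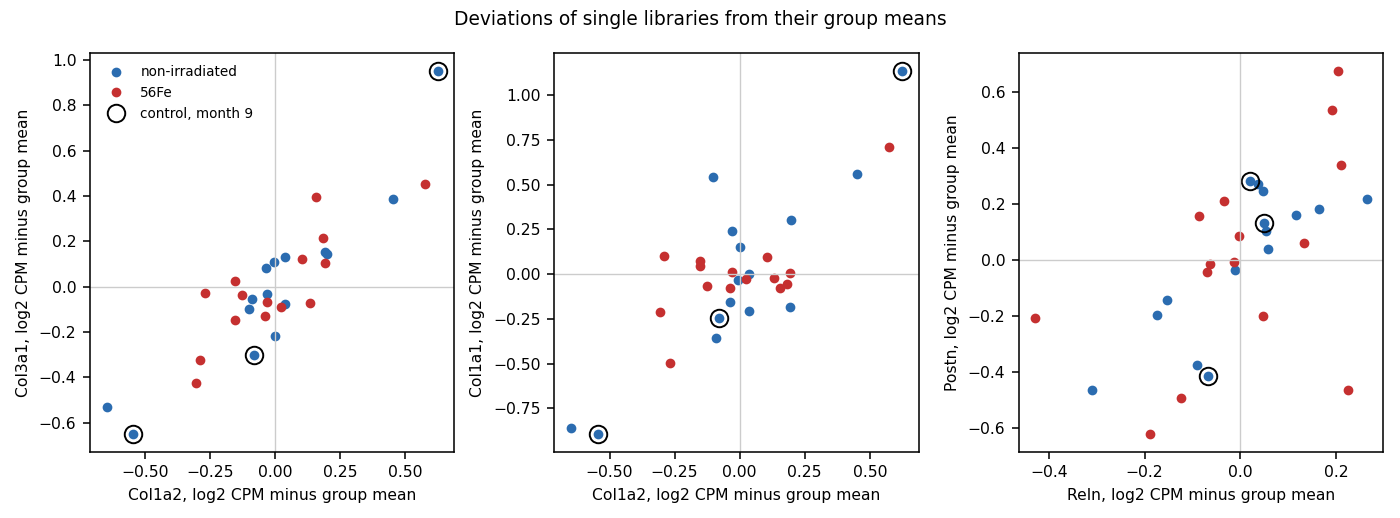
Deviation of each library from its group mean on the log2 CPM scale for 3 pairs of genes (Col1a2 with Col3a1, Col1a2 with Col1a1, Reln with Postn); points are the 30 libraries, blue non-irradiated and red 56Fe, and black rings mark the 3 controls of month 9. The ringed controls lie at both ends of the collagen plots, and Pearson r is 0.896, 0.799 and 0.604.

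The 3 livers furthest above their group means in Col1a2 were also highest in another marker list. The adipocyte list was mostly the lipid droplet gene Cidec (mean 14.6 CPM) and Fabp4 (7.57 CPM). Means of Adipoq, Plin1 and Lep were 0.111, 0.375 and 0.251 CPM. The sum of this list was highest in control replicate 1 of month 12 (108.1 CPM), control replicate 2 of month 9 (89.0 CPM) and irradiated replicate 3 of month 12 (80.7 CPM). These 3 livers also had the highest deviations of Col1a2 (0.45, 0.62 and 0.58). The next highest sum (53.2 CPM) was in irradiated replicate 1 of month 9. That liver had the lowest Col1a2 (10.97 CPM) and Col3a1 (25.2 CPM) of all libraries. The overlap in the highest livers was seen after the values were known, and the part of the adipocyte list in the collagen values was not tested. The portal fibroblast list was also highest of its group in each of these 3 livers. It summed to 18.03 CPM in control replicate 2 of month 9 (11.5 and 10.4 CPM in the other controls). Control replicate 1 of month 12 had 17.2 CPM (11.6 and 11.3 CPM in the others). Irradiated replicate 3 of month 12 had 14.9 CPM (12.5 and 9.00 CPM in the others). The range over all libraries was 9.00 to 20.6 CPM, and the part of this list in the collagen values was not tested. The ratio of Col1a1 to Col1a2 per kb, which compares the messages for the chains of type I collagen, had group means from 0.329 ± 0.110 (controls of month 9) to 0.671 ± 0.1004 (irradiated livers of month 1; SD, n = 3).

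Genes most like each of the 10 were ranked by the same r over 14420 genes with a mean of at least 1 CPM and 30 libraries. For Col1a2 they were Col3a1 (0.896), Col6a1 (0.837) and Tnxb (0.829), all of the matrix. For Col3a1 they were Col1a2 (0.896), Limk1 (0.784) and Col6a1 (0.782), and for Col1a1 they were Ntrk2 (0.827), Col1a2 (0.799) and Col3a1 (0.750). Reln was nearest to the perlecan gene Hspg2 (0.836), Col14a1 (0.830) and Amotl1 (0.805). Postn was nearest to the antisense RNA 4930545L23Rik (0.776), Col14a1 (0.764) and Ccnb2 (0.738).

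Lrat was nearest to the retinoic acid hydroxylase genes Cyp26b1 (0.754) and Cyp26a1 (0.735), then Gm16158 (0.717). Igfbp7 was nearest to Plvap (0.763), which encodes a protein of endothelial diaphragms, Irgm1 (0.747) and Klf2 (0.691). Dcn was nearest to Fmo5 (0.837), a flavin monooxygenase gene, Mrpl1 (0.834) and Vps26a (0.824), none of them a matrix gene. Angptl6 was nearest to Tmem14a (0.825), Gm12718 (0.825) and Acot8 (0.811), and Lhx2 to 1810046K07Rik (0.719), Chst7 (0.671) and Map3k10 (0.662).

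Genes of the same pathways were counted in 8 lists beside these 10, some of which share members. Over all genes, edgeR called 4.60%, 4.37%, 3.60%, 1.66% and 0% at months 1, 2, 4, 9 and 12. The calls in each list are to be read beside these shares. Of 27 quiescent stellate cell genes, all tested, edgeR called 1 at month 9, where 1.66% of all genes were called. This was Pth1r, the parathyroid hormone receptor gene, at 11.3 ± 0.44 CPM in controls and 5.66 ± 2.34 in irradiated livers (SD, n = 3; edgeR adjusted p = 0.0330). The list median at month 9 was -0.31, with 22 of 27 estimated lower, against 49.51% of all genes. The list median at month 2 was -0.19, with 21 of 27 estimated lower, against 51.78% of all genes. At month 2, Gdf2 (18.02 ± 3.51 and 12.2 ± 1.03 CPM) and Colec10 (32.5 ± 4.78 and 22.1 ± 3.16 CPM), which encode a BMP ligand and a collectin, were called lower. Averaged over the months 4 of 27 were called, all lower (2.81% of all genes were called lower), among them Gdf2 (log2 fold change -0.28), Colec10 (-0.28) and Abcc9 (-0.20). At month 1 Adamtsl2 was higher (5.38 ± 1.75 and 11.5 ± 3.56 CPM), and none was called at months 4 and 12.

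Of 21 tested activation genes, edgeR called none at months 1, 4, 9 and 12. Itgb1, an integrin subunit gene, was lower at month 2 (158.8 ± 2.59 and 106.8 ± 6.27 CPM), where 4.37% of all genes were called. The median of this list was 0.26 at month 1 and -0.35 at month 2, against -0.03 and -0.02 over all genes.

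Calls among other collagens and their modifying enzymes were made at months 1, 2 and 4. Of 22 other collagen genes, Col6a1 was higher at month 1 (4.42 ± 1.00 and 7.90 ± 0.16 CPM), Col27a1 (30.7 ± 2.41 and 62.6 ± 15.3 CPM) and Col5a3 (39.2 ± 5.41 and 76.5 ± 13.1 CPM) were higher at month 2, and none was called at months 4, 9 and 12. Over all genes, 4.60% were called at month 1 and 4.37% at month 2. At month 9, 19 of the 22 were estimated lower, with a median of -0.30. At month 2, 15 of the 22 were, with a median of -0.06. Of 27 collagen processing genes, 5 were called at month 1, all higher, where 4.60% of all genes were called. They include Loxl4, a lysyl oxidase gene (3.92 ± 0.63 and 12.7 ± 3.99 CPM), Bmp1, the procollagen proteinase (83.0 ± 8.37 and 126.7 ± 28.5 CPM), and Ppib (33.5 ± 5.31 and 51.6 ± 4.21 CPM). At month 4 the prolyl hydroxylase P4ha1 (39.4 ± 6.73 and 18.7 ± 3.49 CPM) and the collagen chaperone Serpinh1 (22.5 ± 3.12 and 13.2 ± 0.74 CPM) were lower. At that month 3.60% of all genes were called. None was called at months 2, 9 and 12.

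Of 43 tested glycoproteins and proteoglycans, Eln (1.87 ± 0.29 and 4.32 ± 0.80 CPM) and Nid2 (8.44 ± 0.54 and 12.3 ± 1.35 CPM) were higher at month 1. These 2 of 43 are near the 4.60% of all genes called at that month. Hspg2 was lower at month 9 (105.0 ± 8.29 and 65.9 ± 11.3 CPM), where 1.66% of all genes were called. At that month 34 of the 43 were estimated lower (median -0.29), against 49.51% of all genes. Month 2 was much the same, with 34 of the 43 lower (median -0.27), against 51.78% of all genes. Of 20 tested matrix degradation genes none was called at any single month.

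TGF-beta signalling, a main driver of collagen transcription in stellate cells, was counted in 33 genes. Tgif1 was higher at month 1 (13.5 ± 1.53 and 21.6 ± 1.87 CPM), Inhba at month 2 (9.65 ± 1.73 and 26.3 ± 10.3 CPM) and Smurf1 at month 4 (21.4 ± 5.25 and 31.8 ± 1.90 CPM). Each was the only 1 of the 33 called at its month, where 4.60%, 4.37% and 3.60% of all genes were called. At month 9, 4 of the 33 were called, 2 in each direction, where 1.66% of all genes were called. Smad6, an inhibitory SMAD gene (12.1 ± 1.56 and 6.33 ± 1.62 CPM), and Eng, the endoglin coreceptor gene of endothelium (65.6 ± 4.77 and 47.2 ± 4.17 CPM), were lower. Tgfbr1 was higher (58.1 ± 2.58 and 99.5 ± 36.5 CPM), although 1 irradiated liver lay within the control range. The median of the list was -0.02 at month 9.

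Of 28 tested retinoid genes, 3 were called at month 1, where 4.60% of all genes were called. The lipase gene Pnpla2 (45.4 ± 11.1 and 26.0 ± 0.38 CPM) and the alcohol dehydrogenase gene Adh1 (855.6 ± 217.4 and 489.8 ± 70.9 CPM) were lower, and Stra6l, a retinol receptor gene (129.0 ± 5.10 and 238.1 ± 49.0 CPM), was higher. At month 2 Cyp26c1 was higher (1.37 ± 0.43 and 6.43 ± 4.70 CPM). None was called at months 4, 9 and 12. Lrat itself was not called at any month, with an adjusted p of 0.831, 0.990, 0.749, 0.868 and 0.217 at months 1, 2, 4, 9 and 12.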

How the data were processed

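The authors deposited raw read counts per Ensembl gene for 30 libraries. Per the labels and series design text, liver RNA was depleted of ribosomal RNA, made into TruSeq libraries and sequenced as paired 50-base reads. The reads were aligned to GRCm38 with STAR 2.5.3a and counted with its GeneCounts mode on Gencode release M14, per the design text, and the strand column is not stated. Per the same text more reads were used per library than these count totals hold, and the gap is unexplained. Gene symbols with their positions came from Gencode M21, which matched 51633 of 51826 identifiers. The 193 others held at most 0.0222% of a library's counts.

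The quasi-likelihood test of edgeR 4.0.16 (R 4.3.3, robust) was run on all 30 libraries with TMM factors and a coefficient for each group, after filterByExpr had kept genes by a count of 10 and a summed count of 15. Contrasts gave the irradiation effect at each month and its mean, and F-tests the differences between months. Adjusted p-values are Benjamini-Hochberg values over all 19685 genes, called under 0.05. Alternatives were a replicate block, other scaling or filters, DESeq2 1.42.0, limma 3.58.1 voom, a Gm26917 covariate and leaving out libraries. A fit of the month 12 libraries with a block was added after the data were seen. Where a library is left out, the 2 others of its group are assumed to vary like the rest. The fit was tested on simulated data. In a simulated month 9 comparison it called 42% of genes given a 2-fold change and 74% of those given a 4-fold change. Of its 122 calls, 6 were false. CPM are scaled by TMM factors, and levels per kb use the annotated transcript with the longest coding sequence. Promoter windows are RefSeq's. Figures used matplotlib 3.10.9.

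The members and lists were chosen with earlier results of these data known. Named genes are the 10 members in every comparison, up to 3 called genes per list and comparison with the smallest adjusted p, and the 3 genes most like each member (mean of at least 1 CPM). For changes over time the named list genes are left out of the text. A result for 1 list gene is not reported here. The 12 marker lists of other cells were summed per library. P-values measure the spread between samples that the labels call biological replicates. The replicate numbers were checked for pairing by correlating deviations from group means between the arms: r was -0.378 to 0.319 over 15 pairs, with 5 above 0.1, and 0.167 to 0.319 at month 12, where all 3 were above 0.1. Of 30 pairs of replicates compared, none was identical.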

Additional observations from a re-analysis of the deposited data

Results flagged for a closer look

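The effect of irradiation on 2 of the 10 genes differed between months by an F-test of the difference itself in edgeR. For Igfbp7 the adjusted p was 0.008264, with irradiated livers above controls at month 1 (log2 fold change 0.41, higher in 3 of 3 livers) and below them at months 9 and 12 (-0.52 and -0.45, lower in 3 of 3 livers at each). For Lhx2 the adjusted p was 0.01164, with irradiated livers below controls at month 9 (-1.34, lower in 3 of 3 livers) and a month 4 estimate of 0.66 with overlap. The groups hold 3 libraries each, so no library was examined as an outlier within its group.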

How the results depend on the processing

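Of 760 values of single genes under other settings, 665 kept their direction and side of the threshold, 30 lost a call, 17 gained one and 48 changed sign, none of the last in a called value. The number of the 10 genes called moved as follows, with calls over all genes in brackets where given. At month 1 it was 0, and 1 with upper quartile factors, the stricter filter (1 CPM in 3 libraries) or the Gm26917 covariate, 2 with DESeq2, limma voom or the 6 libraries alone, and 0 to 1 without single libraries. At month 2 it was 2 with the 6 libraries alone (3026, against 860 in the main fit). At month 4 it was 1 with DESeq2 (1265) and limma voom (2003), against 708 over all genes in the main fit. At month 9 the 4 calls (326) became 3 with RLE factors (395) or the covariate (243), with Igfbp7 lost in both. They became 5 with DESeq2 (875) or limma voom (838), 1 without a filter (270) and 2 with the replicate block (284). The 6 libraries alone gave 0 (0), and fits without single libraries gave 0 to 5 (0 to 1439). For the mean effect the 2 calls (1035) became 1 with upper quartile factors (1016) or no filter (725) and 3 with limma voom (2685). They became 0 with the covariate (147) and 1 to 2 without single libraries (450 to 2361). For the difference between months the 2 calls (2161) became 3 with the stricter filter (2598), with Col1a1 gained. They became 3 with the covariate (582), with Col1a2 and Col3a1 gained and Igfbp7 lost. They became 4 with DESeq2 (3792) and limma voom (4416), and 2 to 4 without single libraries (1161 to 3238). Over the 5 months in control livers the 7 calls (11486) became 8 without a filter (10854) and 7 to 9 without single libraries. Over the 5 months in irradiated livers the 7 calls became 1 with the covariate, 5 without a filter (Lhx2 and Igfbp7 lost), 8 with RLE factors, upper quartile factors, the stricter filter or DESeq2, and 5 to 7 without single libraries. Over months 4, 9 and 12, the 2 calls in controls became 0 with no filter or the covariate, 4 with limma voom and 0 to 3 without single libraries, and the 0 calls in irradiated livers became 1 with upper quartile factors, the stricter filter, DESeq2, limma voom or the covariate and 0 to 1 without single libraries. The replicate block changed no other number of calls. The pairing check did not establish pairs at any month. At month 4 the own number was highest for all 3 controls, but its r was only 0.0628 to 0.1055. Same-number r was at most 0.319, and the own number gave the highest correlation in 7 of 15 pairs. The cause of these moves was not tested.

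Signs changed for estimates near 0 and for some larger ones. With the Gm26917 covariate the larger ones included Postn, with main estimates of -0.52 at month 4 and -0.27 at month 2. Col1a1 at month 9 (-0.51) changed sign when control replicate 2 was left out. At month 2, Lhx2 (-0.00256) was 0.0196 with RLE factors, 0.0732 with upper quartile, 0.0235 with the stricter filter, 0.0233 with DESeq2, 0.233 with limma voom, 0.005 with the replicate block and 0.0283 with the 6 libraries alone, and without a filter Lrat was -0.0216 and Igfbp7 -0.0122. At month 4, Col1a2 was -0.0155 with RLE factors and with DESeq2, and Col3a1 was 0.0119 with upper quartile factors. With the Gm26917 covariate the values were 0.0579 for Dcn, 0.194 for Reln and -0.0263 for Angptl6 at month 1, 0.0366 for Col1a1 and 0.0429 for Postn at month 2, 0.667 for Col3a1, 0.166 for Reln, 0.159 for Postn and -0.0146 for Angptl6 at month 4, and -0.337 for Reln at month 12. Leaving out single libraries gave ranges across 0 of -0.0434 to 0.189 (Angptl6, month 1), -0.039 to 0.174, -0.0727 to 0.0836, -0.289 to 0.181 and -0.173 to 0.432 (Angptl6, Igfbp7, Lhx2 and Lrat, month 2), -0.0427 to 0.0739, -0.0898 to 0.0722, -0.0177 to 0.122 and -0.545 to 0.259 (Angptl6, Col1a2, Igfbp7 and Lrat, month 4), -0.866 to 0.271 (Col1a1, month 9), and -0.536 to 0.00636, -0.394 to 0.0537, -0.496 to 0.0803 and -0.0415 to 0.313 (Col1a2, Col3a1, Postn and Reln, month 12). Depth limits Lhx2 most, with 17 counts in its lowest library.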
